A study of Mus musculus with 6 samples.

Results

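EPH receptors are the largest family of receptor tyrosine kinases, and ephrins are their ligands, which are themselves bound to the cell membrane. The levels of 10 genes of these families, the receptor genes Epha1, Epha2, Epha4, Ephb2, Ephb3 and Ephb4 and the ligand genes Efna1, Efna4, Efnb1 and Efnb2, were examined in wild-type and Med23 knockout mouse embryonic stem (ES) cells. Members were taken by name, as every probe set that the platform annotation assigns to 1 of the 10 symbols alone. This gave 21 probe sets for 9 genes, of 45037 probe sets and 18193 genes in all. Ephb2 had no probe set under its own symbol in the annotation used and was not analysed here.

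Both groups were ES cells of the 129SV strain, wild-type in genotype in one group and MED23 knockout in the other, kept in regular ES culture and harvested in Trizol 24 hours after a change to fresh complete medium. MED23 is a subunit of Mediator, the complex that connects transcription factors with RNA polymerase II. Each group held 3 arrays, which the labels call biological replicates. How the knockout was made and whether each line is 1 clone were not given in the labels used, so the p values cover only the spread among these cultures, which may be technical. The comparison of the genotypes asks which transcripts differ when Med23 is lost in steady culture, and the study's title names BMP signalling and neural differentiation as its subject.

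EPH receptors and ephrins signal where cells touch. A receptor bound by an ephrin on a neighbouring cell signals forward through its kinase domain, while the ephrin signals in reverse into the cell that carries it. A ephrins are held by a lipid anchor and bind mainly EPHA receptors, whereas B ephrins span the membrane and bind mainly EPHB receptors; EPHA4 is known to bind ligands of both classes. The families are best known for repulsion between cells, for boundaries between tissues of the embryo, and for the guidance of axons and blood vessels. In ES cells, ephrin-A1 and EPHA2 are known as regulators of the ERK pathway and of the exit from pluripotency.

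Array values are on the log2 scale as deposited, so a difference of 1 is a doubling, and fold changes are knockout minus wild-type. Each gene is represented by its brightest probe set over the 6 arrays, and a gene passed the test at a limma adjusted p under 0.05, adjusted over all 45037 probe sets. A separate fit on the mean of each gene's probe sets was adjusted over genes instead, so its adjusted p values are on another scale. Med23 itself was 8.95, 8.86 and 8.84 in the wild-type arrays and 7.40, 7.37 and 7.33 in the knockout arrays, a log2 fold change of -1.52 ± 0.06 (SE; by limma, adjusted p = 2.69e-05). The labels do not say whether its probe set lies in the deleted part. The Y-linked gene Eif2s3y was 2.66 to 3.40 in wild-type and 9.71 to 10.01 in knockout arrays, so the lines also differed by a gene of the Y chromosome. Genotype and line cannot be told apart in this design. Array medians lay between 4.61 and 4.64. Wild-type replicate 1 stood apart, with 752 probe sets lower by 2-fold or more than the mean of the other wild-type arrays, against 0 to 4 such probe sets on each of the others. The median over all probe sets and arrays was 4.62. All 10 ES cell markers were above it in both groups, and their summed level was 15.79 to 15.89 in wild-type and 15.77 to 15.80 in knockout arrays; 3 of the 10 fell (Klf4 by 0.63, Fgf4 by 0.37 and Tdgf1 by 0.28), 0 rose and 7 did not pass.

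Of the 9 measured genes, 4 fell in the knockout (Epha2, Efnb2, Efna4 and Epha1, by 0.54 to 0.76 on the log2 scale), 1 rose (Epha4) and 4 did not pass the test (Efna1, Efnb1, Ephb3 and Ephb4). Over all genes, 10.4% fell and 8.53% rose. The members were chosen with earlier results of these data known, so their counts and medians are no test of the families. Among the other 12 family genes 1 fell and 0 rose, with a median log2 fold change of -0.01. Without wild-type replicate 1, the same 4 genes fell and 1 rose, which was then Ephb4 in place of Epha4. The median log2 fold change of the 9 genes was -0.50, beside 0.02 for all genes, and 7 of the 9 had a negative value. It was -0.32 with the mean of each gene's probe sets, and the median over the 21 probe sets was -0.19, beside 0.03 for all probe sets. Of the 21 probe sets, 6 fell and 3 rose, where 7.43% of all probe sets fell and 6.69% rose; the 3 became 1 when wild-type replicate 3 or knockout replicate 1 or 3 was left out in turn. In 11 of the 21 every knockout array lay below every wild-type array, and in 6 every knockout array lay above; over all probe sets these shares were 14.8% and 18.0%. All 4 ligand genes among the 9 had a negative log2 fold change, 2 of 4 past the test. The receptor genes among the 9 went both ways, with 2 lower, 1 higher and 2 not past the test among 5. Ligand genes outside the 9 went both ways too (Efna3 -0.94, Efna5 -0.43, Efna2 0.25 and Efnb3 0.01). In these bulk samples, fewer cells that express a gene and less RNA per cell cannot be told apart.

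**Figure D1:**
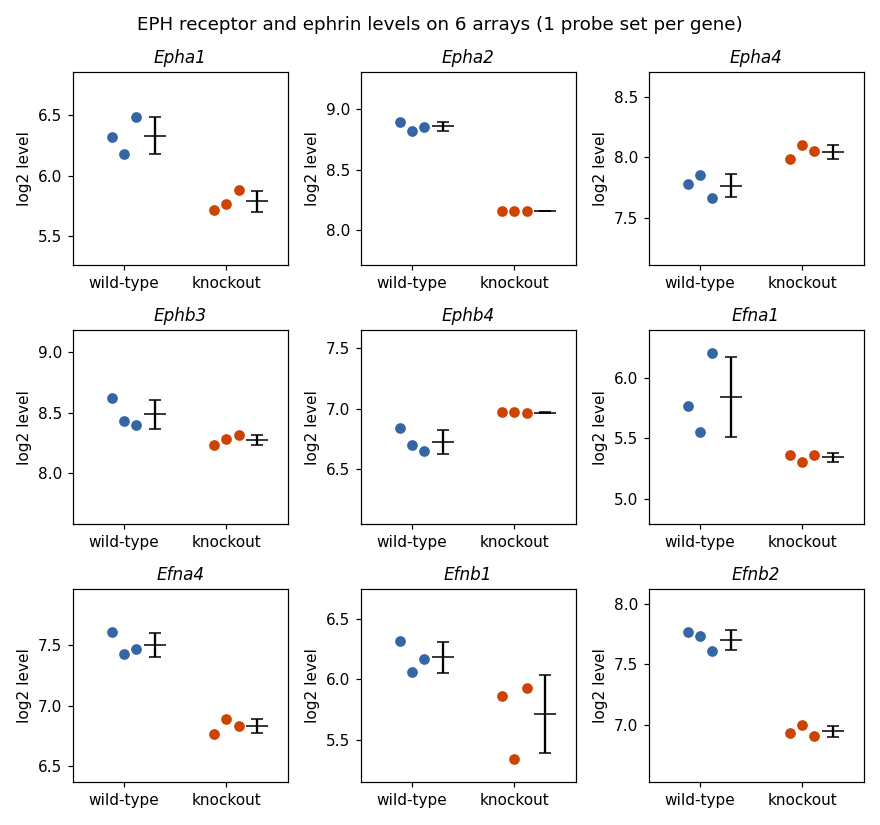
Log2 level of the 9 measured genes on each of the 6 arrays, 1 probe set per gene, with 3 wild-type arrays (blue) and 3 knockout arrays (orange) in each panel; the bars show the mean and SD, and every panel spans the same log2 range around its own centre. For Epha2, Efnb2, Efna4 and Epha1 the 3 knockout arrays lie well below the 3 wild-type arrays, and for Epha4 they lie above. The groups also do not overlap for the genes that did not pass, with knockout arrays above for Ephb4 and below for Efna1, Efnb1 and Ephb3.

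Among the receptors, Epha2 had the largest difference. Epha2, a receptor active in epithelia and in early embryonic cells (probe set 1421151_a_at), was 8.90, 8.82 and 8.85 in the wild-type arrays and 8.16, 8.16 and 8.16 in the knockout arrays. The groups were clearly separate and the knockout arrays nearly identical. Its mean went from 8.86 ± 0.04 to 8.16 ± 0.002 (SD, n = 3 each). The log2 fold change was -0.70 ± 0.06 (SE; by limma, adjusted p = 0.000412), or 1.62-fold lower. It is measured by this 1 probe set alone. The fall passed the test in all 14 alternative fits, with log2 fold changes from -0.72 to -0.68.

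Epha1, an epithelial receptor and the first of the family to be described, was 6.32, 6.18 and 6.49 in wild-type and 5.71, 5.77 and 5.88 in knockout arrays (probe set 1422917_at). All knockout values were below all wild-type values, with a log2 fold change of -0.54 ± 0.09 (SE; by limma, adjusted p = 0.00974). The other probe sets of the gene did not pass. On 1432399_a_at the groups overlapped (4.70 to 5.20 in wild-type, 4.84 to 5.26 in knockout; difference 0.13 ± 0.16 SE, adjusted p = 0.672 by limma), and 1432400_at was below the overall median in both groups, with a difference of -0.19 ± 0.08 (SE; by limma, adjusted p = 0.166). With the mean of the 3 probe sets in place of the brightest, the log2 fold change was -0.20 and the call ended (limma adjusted p = 0.0788), so the fall of Epha1 rests on 1 of 3 probe sets.

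Epha4, a receptor of axon guidance and of boundaries between segments of the embryo, was the only one of the 9 genes to pass the test upwards. Its brightest probe set, 1421929_at, was 7.78, 7.85 and 7.67 in wild-type and 7.99, 8.10 and 8.05 in knockout arrays. The groups did not overlap, and the log2 fold change was 0.28 ± 0.07 (SE; by limma, adjusted p = 0.0472). Its 3 further bright probe sets gave differences of similar size. On 1429021_at the levels were 7.68, 7.68 and 7.67 in wild-type and 8.0, 8.13 and 8.03 in knockout arrays, a log2 fold change of 0.38 ± 0.06 (SE; by limma, adjusted p = 0.00792). For 1421928_at the log2 fold change was 0.34 ± 0.08 (SE; by limma, adjusted p = 0.0372) and for 1439757_s_at it was 0.33 ± 0.10 (SE; by limma, adjusted p = 0.0831), both without overlap of the groups. The fifth probe set, 1456863_at, was below the overall median (means 3.42 and 3.45) and its groups overlapped. The call of 1429021_at held in every alternative fit that was run on probe sets. That of 1421928_at ended when wild-type replicate 2 or 3 or knockout replicate 1 or 3 was left out in turn (limma adjusted p = 0.0953, 0.0926, 0.123 and 0.134), and 1439757_s_at passed without wild-type replicate 2 (limma adjusted p = 0.0465). The call on the brightest probe set ended when any 1 array was left out, with adjusted p = 0.0678, 0.0596 and 0.106 without wild-type replicates 1, 2 and 3 and 0.09, 0.159 and 0.144 without knockout replicates 1, 2 and 3; the log2 fold change then lay between 0.23 and 0.32.

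The measured EPHB receptor genes, Ephb3 and Ephb4, did not pass the test, each on its 1 probe set. Ephb2 was not measured. Ephb4, the receptor that marks veins and pairs with ephrin-B2, was 6.84, 6.70 and 6.65 in wild-type and 6.97, 6.97 and 6.96 in knockout arrays. The knockout values were all higher, by 0.24 on average (log2 fold change, SE 0.07, limma adjusted p = 0.0693). Without wild-type replicate 1 the log2 fold change of Ephb4 was 0.29 and passed (limma adjusted p = 0.0244). Ephb3, a receptor known from the sorting of intestinal epithelial cells, was 8.62, 8.43 and 8.40 in wild-type and 8.23, 8.28 and 8.32 in knockout arrays, with a log2 fold change of -0.21 ± 0.08 (SE; by limma, adjusted p = 0.136). The values of Ephb3 did not overlap between the groups, but the gap was small beside the wild-type spread.

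Among the ligands, Efnb2 had the largest difference. Efnb2, which encodes ephrin-B2, a ligand of arterial vessels and the partner of EPHB4, was 7.76, 7.74 and 7.61 in wild-type and 6.93, 7.0 and 6.91 in knockout arrays (probe set 1419639_at). Its mean went from 7.70 ± 0.08 to 6.95 ± 0.05 (SD, n = 3 each). The log2 fold change was -0.76 ± 0.07 (SE; by limma, adjusted p = 0.000639), or 1.69-fold lower. A second probe set, 1419638_at, was 6.57, 6.61 and 6.48 against 5.67, 5.64 and 5.66, a log2 fold change of -0.90 ± 0.06 (SE; by limma, adjusted p = 0.000215). Both bright probe sets thus had separate groups and the same direction. The other two, 1449548_at and 1449549_at, were below the overall median in both groups and did not pass, with log2 fold changes of -0.13 and 0.34; the latter passed without wild-type replicate 1, at 0.44 (limma adjusted p = 0.0284). With the mean of all 4 probe sets the log2 fold change of Efnb2 was -0.36 and still passed (limma adjusted p = 0.00941).

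Efna4, which encodes the lipid-anchored ephrin-A4, was 7.61, 7.43 and 7.47 in wild-type and 6.77, 6.89 and 6.83 in knockout arrays (probe set 1421784_a_at). The groups lay far apart relative to their spread, with means of 7.5 ± 0.10 and 6.83 ± 0.06 (SD, n = 3 each). The log2 fold change was -0.67 ± 0.08 (SE; by limma, adjusted p = 0.00145), or 1.59-fold lower, and it passed in all 14 alternative fits. Like Epha2, Efna4 is measured by 1 probe set alone.

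Efna1, which encodes ephrin-A1, a ligand of EPHA2, was 5.77, 5.55 and 6.20 in wild-type and 5.36, 5.30 and 5.36 in knockout arrays. All knockout values were lower, but the wild-type values were widely spread, and the log2 fold change of -0.50 ± 0.16 (SE; by limma, adjusted p = 0.0828) did not pass. Without wild-type replicate 2 it was -0.64 and passed (limma adjusted p = 0.0393), and without wild-type replicate 3, the highest, it was -0.32 and did not (limma adjusted p = 0.0757). The mean of both probe sets gave -0.32 (limma adjusted p = 0.156). A dimmer probe set of Efna1 overlapped between the groups, at 4.0 to 4.62 in wild-type and 4.03 to 4.40 in knockout arrays.

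Efnb1, the X-linked gene of ephrin-B1, which is known for craniofacial development, was 6.32, 6.06 and 6.16 in wild-type and 5.87, 5.34 and 5.93 in knockout arrays. Knockout replicate 2 was the lowest, and the log2 fold change of -0.47 ± 0.16 (SE; by limma, adjusted p = 0.109) did not pass. Without that array it was -0.28 (limma adjusted p = 0.162). Its second probe set had a log2 fold change of -0.32 ± 0.10 (SE; by limma, adjusted p = 0.0878). The third, 1418285_at, fell by 0.46 ± 0.08 (SE; by limma, adjusted p = 0.00964) from 4.51, 4.57 and 4.48 to 4.01, 4.20 and 3.98, levels below the overall median that cannot be separated from background on these arrays. All 3 probe sets had separate groups in the same direction, and their mean, at -0.41, passed (limma adjusted p = 0.0049).

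**Figure D2:**
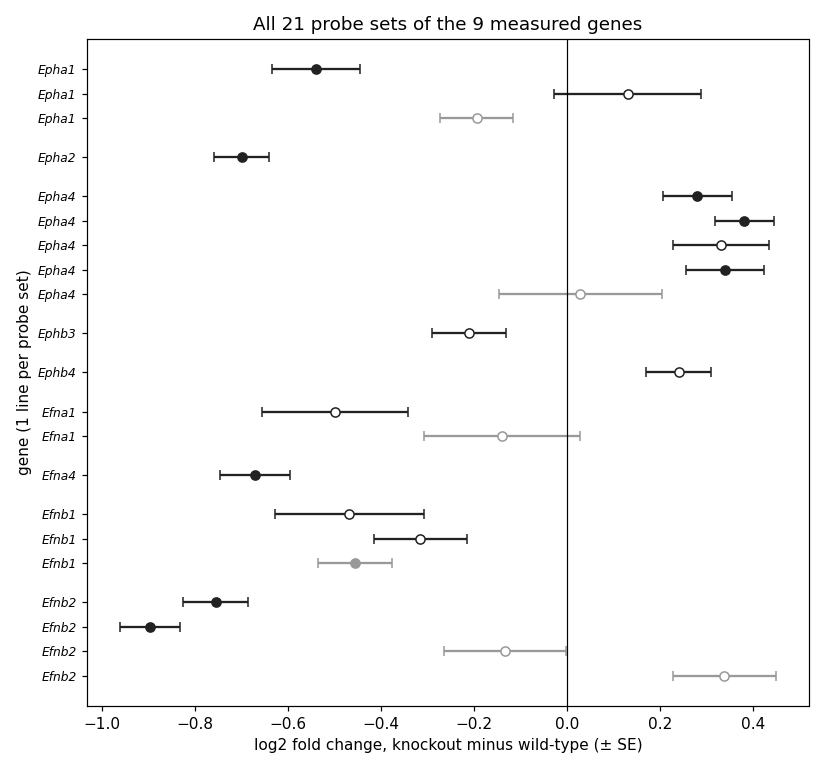
Log2 fold change (knockout minus wild-type, with SE) of the 21 probe sets of the 9 genes, 1 line per probe set and the brightest first within each gene; filled points passed the test, and grey points mark probe sets dimmer than the overall median in both groups. The 4 bright probe sets of Epha4 lie between 0.28 and 0.38, those of Efnb2 at -0.76 and -0.90, and the 2 dimmer probe sets of Efnb2 lie near or above 0.

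The promoters of the genes with the largest falls among the 9 (Epha2, Efnb2 and Efna4) and of Epha4, which went the other way, are shown so that their letters can be set side by side. They run from 250 bases before to 50 bases after the start site, 5′ to 3′ on the gene's strand, from RefSeq on GRCm38.p6; capitals mark GGGCGG, the core of SP factor sites, or its reverse complement.
Epha2, chr4:141300971-141301270, + strand: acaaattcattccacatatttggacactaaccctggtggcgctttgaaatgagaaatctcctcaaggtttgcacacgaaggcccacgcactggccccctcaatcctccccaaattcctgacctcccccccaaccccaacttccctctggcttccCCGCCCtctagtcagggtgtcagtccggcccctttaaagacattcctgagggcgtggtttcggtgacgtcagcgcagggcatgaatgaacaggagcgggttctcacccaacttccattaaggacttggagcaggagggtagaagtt
Efnb2, chr8:8661193-8661492, - strand: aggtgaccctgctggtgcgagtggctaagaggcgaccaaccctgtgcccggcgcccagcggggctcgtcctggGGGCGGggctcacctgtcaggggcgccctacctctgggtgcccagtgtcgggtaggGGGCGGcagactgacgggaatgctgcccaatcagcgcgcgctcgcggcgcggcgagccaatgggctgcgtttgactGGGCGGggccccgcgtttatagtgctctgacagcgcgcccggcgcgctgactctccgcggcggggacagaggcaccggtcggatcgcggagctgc
Efna4, chr3:89337979-89338278, - strand: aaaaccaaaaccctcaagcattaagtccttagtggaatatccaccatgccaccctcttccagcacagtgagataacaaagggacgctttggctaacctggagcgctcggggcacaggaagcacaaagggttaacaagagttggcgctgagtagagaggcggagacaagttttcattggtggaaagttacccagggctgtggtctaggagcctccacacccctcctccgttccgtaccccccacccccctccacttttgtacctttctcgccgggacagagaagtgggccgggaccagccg
Epha4, chr1:77515039-77515338, - strand: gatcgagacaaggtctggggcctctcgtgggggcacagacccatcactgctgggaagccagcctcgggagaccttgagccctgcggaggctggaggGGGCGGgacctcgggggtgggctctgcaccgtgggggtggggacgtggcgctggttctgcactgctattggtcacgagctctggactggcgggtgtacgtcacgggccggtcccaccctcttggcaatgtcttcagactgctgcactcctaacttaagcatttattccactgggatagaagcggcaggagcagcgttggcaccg

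All 9 measured genes had a promoter in the RefSeq table, and Efna1 had 2. A search covered 4 motifs on both strands. GGGCGG was found in promoters of 7 of the 9 genes, in 35.7% of the 32851 promoters of that length in the table. Efnb2 held 3 copies, Epha2 and Epha4 1 each, and Efna4 none. The EGR core GTGGGCG was found in Ephb3, where it overlaps a GGGCGG site, and in Efnb1, and in 7.97% of all promoters. The ETS motif CCGGAAG (8.86% of all promoters) and the E-box CACGTG (7.15%) were in none of the 9 genes' windows. A match is a description of letters only.

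The position of the genes on their chromosomes was compared with that of 20 neighbours, the 10 genes on either side in RefSeq order with a mean log2 level above 7. For Efnb2 on chromosome 8, the 20 neighbours from Xab2 to Arhgef7 had a median log2 fold change of -0.53, with 14 lower past the test and 0 higher. Efnb2 was lower than this median by a further 0.23 (difference of -0.23), the sixth lowest of the 21 genes. The neighbouring basement membrane collagen genes Col4a1 and Col4a2 had far lower values (-3.41 and -3.71). The fall of Efnb2 was thus one of many in its stretch, and a change of the gene and a change of the stretch cannot be told apart.

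The other falls lay in stretches whose medians were near 0, with single neighbours that also fell. The medians around Epha2 on chromosome 4, Epha1 on chromosome 6 and Efna4 on chromosome 3 were 0.02, 0.01 and 0.03, and the differences of the genes from these medians were -0.72, -0.56 and -0.70. Around Epha2 4 neighbours fell (Efhd2 by 0.72 and Iffo2 by 0.68 among them) and 4 rose. Around Epha1 3 fell (Atp6v0e2 by 0.79) and 0 rose, and around Efna4 1 fell (Slc50a1, by 0.55) and 2 rose. Efna1 and Efna3 lie between Slc50a1 and Efna4 but were left out of these neighbours, with mean levels under 7. Efna4 was the lowest of its 21 genes, though Efna3, at -0.94, was lower. Epha2 and Epha1 were the second lowest of theirs. Epha4 on chromosome 1 was the highest of its 21 genes, with a neighbour median of -0.04. The neighbour medians of Efnb1, Ephb3 and Ephb4 lay between 0.04 and 0.07.

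**Figure D3:**
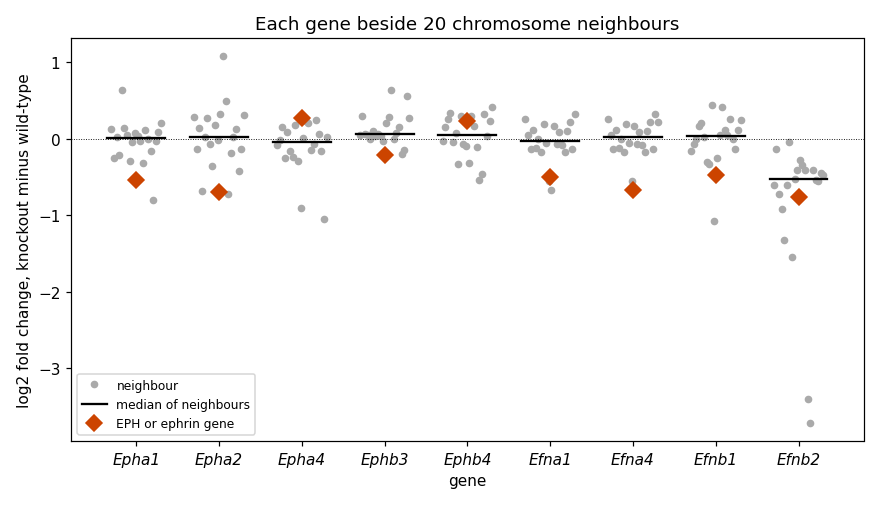
Log2 fold change (knockout minus wild-type) of each of the 9 genes (diamonds) beside its 20 chromosome neighbours (grey points, in chromosome order) and their median (black line). The neighbours of Efnb2 have a median of -0.53, while those of the other 8 genes have medians between -0.04 and 0.07.

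Efna1 and Efna4 lie in one short stretch of chromosome 3 together with Efna3, which encodes ephrin-A3, with no other protein-coding gene between them in RefSeq order. Efna3, not among the 10 genes, was 6.28, 6.23 and 6.47 in wild-type and 5.24, 5.50 and 5.43 in knockout arrays, and fell by 0.94 on the log2 scale (SE 0.10, limma adjusted p = 0.00102). Its dimmer probe set did not pass (log2 fold change -0.18, limma adjusted p = 0.28), and the mean of both gave -0.56 (limma adjusted p = 0.000506). With a mean level under 7 it was not among the neighbours above. The values of these A ephrin genes were therefore -0.50 for Efna1, -0.94 for Efna3 and -0.67 for Efna4. The 20 genes around all 3, from Msto1 to Ubap2l, had a median log2 fold change of 0.03, with 1 lower and 2 higher past the test.

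The other 12 genes of the families, all measured, were mostly dim. None of their 8 receptor genes passed the test, and 7 of those 8 (Epha3, Epha5, Epha6, Epha7, Epha8, Ephb1 and Ephb6) were below the overall median in both groups. Among their 4 ligand genes, Efna3 fell and the rest did not pass. Efna5, a ligand of axon guidance, had a log2 fold change of -0.43 ± 0.12 (SE; by limma, adjusted p = 0.052), Efna2 of 0.25 ± 0.08 (SE; by limma, adjusted p = 0.0888) and Efnb3 of 0.01 ± 0.07 (SE; by limma, adjusted p = 0.941). The median over the 12 genes was -0.01.

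**Figure D4:**
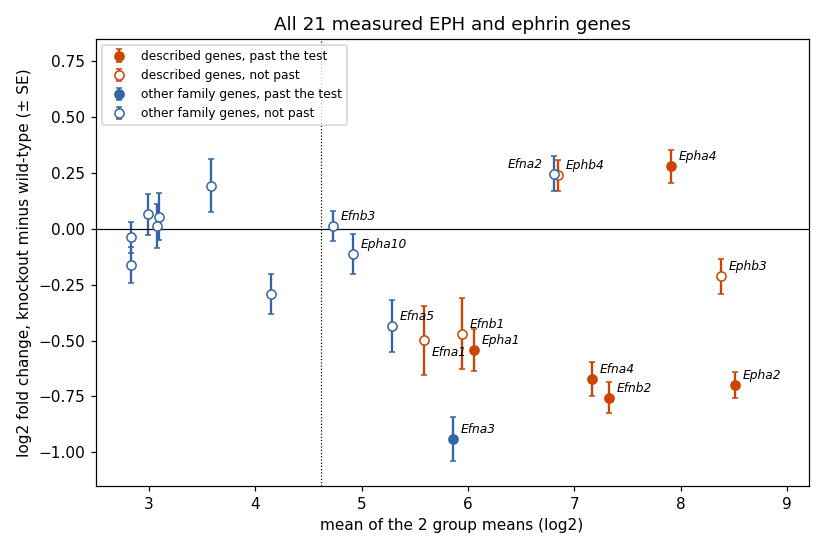
Log2 fold change (knockout minus wild-type, with SE) of the 21 measured EPH and ephrin genes against the mean of the group means, 1 probe set per gene; orange marks the 9 described genes, blue the other 12, filled points passed the test, and the dotted line is the median of all probe sets (4.62). Efna3, Efnb2, Epha2, Efna4 and Epha1 lie lowest among the filled points, Epha4 is the filled point above 0, and 7 receptor genes lie left of the dotted line.

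Genes that carry the forward signal of EPH receptors, among them SRC family kinases, adaptors and exchange factors, passed the test about as often as all genes. Of 40 listed genes 37 were measured, of which 5 rose, 3 fell and 29 did not pass, with a median log2 fold change of 0.06. The 21.6% past the test in either direction stand beside 18.9% of all genes (8.53% higher and 10.4% lower). Grb10, an imprinted adaptor gene whose product binds several receptor tyrosine kinases, rose from 6.95 ± 0.11 to 9.28 ± 0.05 (SD, n = 3), a difference of 2.33 ± 0.08 (SE; by limma, adjusted p = 1.55e-05), and the mean of its probe sets gave 1.06 (limma adjusted p = 9.78e-05). The chimaerins are RAC GTPase-activating proteins, and their 2 genes on this list moved in opposite directions. Chn1 went from 7.17, 7.10 and 7.02 to 7.66, 7.72 and 7.69 (log2 fold change 0.59, limma adjusted p = 0.00133), with 0.32 for the mean of its probe sets (limma adjusted p = 0.0195). Chn2 fell by 0.62 (limma adjusted p = 0.014) to a knockout mean of 4.28, below the overall median, and its call ended without knockout replicate 3 (limma adjusted p = 0.0517). Kalrn, an exchange factor gene of dendritic spines, rose by 0.57 (limma adjusted p = 0.0104) on its brightest probe set, and the mean of its probe sets gave 0.10 (limma adjusted p = 0.263).

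A second list of 18 genes was drawn up for reverse signalling of ephrins and for their shedding from the membrane. The part of each listed gene, Gpc3 among them, in these processes was not tested. Of 17 measured, 2 rose, 2 fell and 13 did not pass, with a median of -0.09. The share past the test, 23.5%, was near the 18.9% of all genes. The glypican gene Gpc3 rose from 7.70, 7.43 and 7.68 to 8.71, 8.61 and 8.60 (log2 fold change 1.04, limma adjusted p = 0.000498). Rgs3, whose product links B ephrins to G protein signalling, fell by 0.40 (limma adjusted p = 0.00821), and the mean of its probe sets gave -0.16 (limma adjusted p = 0.064). Dab1, an adaptor gene of reelin signalling, rose by 0.53 (limma adjusted p = 0.00923; 0.18 and limma adjusted p = 0.101 with the mean of its probe sets). The protease gene Mmp9 fell by 0.46 (limma adjusted p = 0.0115), to a mean of 4.63 at the median of all probe sets, and the call ended without knockout replicate 3 (limma adjusted p = 0.0526) and with the mean of its probe sets, at -0.25 (limma adjusted p = 0.0832).

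The genes whose values over the 6 arrays were most like those of Efnb2 and of Epha4 were sought among 11606 genes above the median, by the mean absolute difference after each gene's own mean was subtracted. For Efnb2 these were Mccc1, 1810030O07Rik and Fhl1, at mean differences of 0.021, 0.025 and 0.025 on the log2 scale, with log2 fold changes of -0.77, -0.72 and -0.71. For Epha4 they were Aym1, Nsd1 and Jade1, at 0.022, 0.023 and 0.026, with log2 fold changes of 0.25, 0.24 and 0.28. Aym1 and Nsd1 did not pass the test (limma adjusted p = 0.0806 and 0.0532). Jade1 passed (limma adjusted p = 0.0426) but kept its call in only 6 of 14 alternative fits. With 6 arrays in 2 groups, this likeness is mostly the difference between the groups.

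Markers of further cell types also differed between the groups. Of 12 endoderm markers 10 fell and 0 rose, and their summed level was 11.52 to 11.96 in wild-type and 9.01 to 9.14 in knockout arrays (log2 of the summed linear levels). Gata6, a factor of primitive endoderm, went from 7.52 to 4.92, whereas Afp and Ttr were below the overall median in both groups. Of 8 trophoblast markers 3 fell (Krt7, Krt8 and Krt18), with summed levels of 11.53 to 11.68 and 10.19 to 10.29, and Cdx2 and Elf5 were below the median in both groups. Summed endothelial markers were 8.05 to 8.23 in wild-type and 8.56 to 8.61 in knockout arrays, with 2 of 6 higher (Pecam1 and Tek) and 1 lower (Cdh5, by 0.62; limma adjusted p = 0.0029), and Cdh5, Tie1 and Emcn were below the median in both. Summed mesoderm markers were 7.76 to 7.99 and 7.20 to 7.23, with 3 of 7 lower (Pdgfra, Twist1 and Snai1) and 4 of 7 below the median in both groups. The largest of these falls was that of Pdgfra, from 6.48 to 4.29. Summed fibroblast markers were 7.23 to 7.47 and 6.98 to 7.13, with 2 of 9 lower and 7 of 9 below the median in both groups. Of 8 neural markers 1 rose (Pax6, log2 fold change 2.21) and 3 fell (Olig2 -2.34, Map2 -1.49 and Nes -0.56). Their summed levels were 9.17 to 9.46 in wild-type and 9.44 to 9.48 in knockout arrays. The part of these cell types in the differences of the EPH and ephrin genes was not tested.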

How the data were processed

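Per the labels' protocols, total RNA was labelled with biotin by the Affymetrix protocol. The authors deposited a single table of log2 values for the 6 arrays, and this unit was inferred from their range. RMA and MAS5 are named, per the submitters' processing notes, with no role or version. The values were used with no further normalization, and 0 columns belonged to other samples. Without detection calls, low values cannot be separated from background.

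Of 45101 probe sets 64 controls were left out. The platform annotation gave 34945 probe sets 1 symbol, 932 several and 9160 none; 34741 were matched by Entrez identifier to RefSeq (GRCm38.p6), used for symbols, gene order and promoters. Each probe set was fitted in limma 3.58.1 under R 4.3.3 (lmFit, eBayes, two-sided, Benjamini-Hochberg over all probe sets), with 4 residual and 3.08 prior degrees of freedom, checked on simulated data. A gene is represented by its probe set with the highest mean. Named were all members, other family genes past the test, up to 4 genes of each signalling list with the largest change past the test and a group mean above the median, and 3 genes most like the largest rise and fall. The members and lists were chosen with earlier results of these data known. The number of arrays limits precision. Alternatives were other normalizations, a filter on low values, other variance priors, array weights, the replicate block, leaving out each array and the mean of a gene's probe sets.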

Additional observations from a re-analysis of the deposited data

How the results depend on the processing

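Over 14 alternatives, Epha2, Efna4 and Efnb2 kept their direction and stayed past the test, and Epha1 did so except with the mean of its probe sets. Epha2 and Efna4 have 1 probe set each, so the mean of probe sets could not change their log2 fold changes. The count of member genes that fell was 4 or 5 in every fit that left out 1 array. The count that rose was 1, but 2 with only bright probe sets tested, with array weights and with the mean of a gene's probe sets (Epha4 and Ephb4), and 0 to 1 when 1 array was left out. Ephb4 has 1 probe set, so its log2 fold change of 0.24 was the same in the fit on means. It passed there (limma adjusted p = 0.036) through the refit and adjustment over genes. Member probe sets that rose numbered 3, but 5 with only bright probe sets and with array weights and 1 to 4 when 1 array was left out. Probe sets past the test numbered 6359 in all and 3792 to 7107 when 1 array was left out, fewest without knockout replicate 2 and with fewer samples in each such fit. Deviations from the group mean had correlations of -0.133, -0.0588 and 0.000831 between same-numbered arrays. With 3 arrays per group and wild-type replicate 1 apart, these values cannot decide whether the numbers pair the samples. The labels do not say so either. With the replicate block, 0 member genes and 1 member probe set rose, 4 member genes fell and 4593 probe sets passed.

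Reversed signs occurred for dim or overlapping probe sets that never passed: leaving out 1 array, the dim probe set of Efna1 ranged from -0.31 to 0.0038, one of Epha1 from -0.0021 to 0.26, and the dim one of Epha4 from -0.11 to 0.18. Away from the counts, 453 of the 499 recomputed fold changes kept direction and side of the threshold. The cause of these changes was not tested. Signal near background limits the probe sets below the median of 4.62.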
